A study of Mus musculus with 24 samples.

Results

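Lipid-associated macrophages are a state that macrophages take up in adipose tissue, and the 8 genes described here (Trem2, Gpnmb, Spp1, Cd9, Cd63, Lgals3, Fabp5 and Lipa) are among those that mark it. They were taken by symbol from a table of 16730 genes, of which 14067 carry a symbol, and all 8 had counts in every library and passed the filter on low values. They were measured by QuantSeq, which counts 3′ ends of polyadenylated RNA, in the epididymal white adipose tissue (eWAT) of 24 male littermate mice in 4 groups of 6, with 1 library per mouse. The Lama4 fl/fl mice, chow-fed or HFD-fed, carried the floxed Lama4 allele without Cre, on breeder chow or a high-fat diet (HFD) with 45% fat. The Lama4 AKO mice, again chow-fed or HFD-fed, carried the same floxed allele and an adiponectin-driven Cre, which deletes Lama4, a laminin chain of the adipocyte basement membrane, in adipocytes and leaves the gene intact in macrophages. Per the labels both diets were given for 20 weeks, and all 4 groups were on the C57BL/6J background. By the study's description chow feeding began at weaning and HFD feeding at a later age and the HFD-fed mice were older at collection, so that diet, age and feeding period cannot be told apart.

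When adipocytes enlarge and die, macrophages surround them, take up the released lipid and break it down in lysosomes. Trem2 is a lipid-sensing receptor at the surface of these cells and signals through the adaptor Tyrobp. Gpnmb is a transmembrane glycoprotein made by lysosome-rich macrophages, Spp1 encodes the secreted matrix protein osteopontin, and Lgals3 encodes galectin-3, a lectin that binds damaged lysosomes. Cd9 and Cd63 are tetraspanins of the cell surface and of late endosomes. Fabp5 encodes a fatty acid binding protein, and Lipa encodes lysosomal acid lipase, which hydrolyses cholesteryl esters and triglycerides. In GRCm38 the protein-coding genes lie apart from each other: Trem2 at chr17:48346401-48354147, Gpnmb at chr6:49036546-49070929, Spp1 at chr5:104435118-104441050 and Cd63 at chr10:128900989-128912822, all on the plus strand. Lgals3 (chr14:47367751-47386160) and Fabp5 (chr3:10012548-10016607) are on the plus strand too, and Cd9 (chr6:125460266-125494791) and Lipa (chr19:34492318-34527474) on the minus strand. Several of these genes are also transcribed outside macrophages, Cd63, Cd9 and Fabp5 among them. In bulk tissue, fewer cells of a type and less RNA per cell cannot be told apart.

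The promoters of the members were searched on both strands for short letters that known regulators of macrophage and lysosomal genes bind: CACGTG and CATGTG (bound by the MiT/TFE factors), GAGGAA (the core read by PU.1) and TGANTCA (AP-1). RefSeq promoters (GRCm38.p6), each from 250 bases before to 50 bases after the start, were found for 7 of the 8 members. CACGTG was in 0 of the 7 members' promoters and in 7.15% of all 32851 promoters of this length. CATGTG was in 1 of 7 (Cd9) against 14.2% of all, GAGGAA in 4 of 7 (Trem2, Spp1, Cd63 and Lipa) against 28.3%, and TGANTCA in 2 of 7 (Trem2 and Gpnmb) against 7.81%. Stretches of 150 bases upstream of the start are shown for 3 members, that of Cd9 because it holds a CATGTG match, and those of Trem2 and Spp1, picked once their values were known, because they belong to the receptor and to the member with the widest range. Capitals mark the matches, read on either strand.
Trem2, chr17:48346251-48346400, plus strand: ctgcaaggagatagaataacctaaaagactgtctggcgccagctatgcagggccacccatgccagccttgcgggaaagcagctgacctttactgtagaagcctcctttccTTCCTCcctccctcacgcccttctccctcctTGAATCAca
Spp1, chr5:104434961-104435110, plus strand: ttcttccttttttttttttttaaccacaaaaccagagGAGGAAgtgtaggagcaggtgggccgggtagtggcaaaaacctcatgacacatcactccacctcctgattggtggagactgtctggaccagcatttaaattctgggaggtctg
Cd9, chr6:125494792-125494941, minus strand: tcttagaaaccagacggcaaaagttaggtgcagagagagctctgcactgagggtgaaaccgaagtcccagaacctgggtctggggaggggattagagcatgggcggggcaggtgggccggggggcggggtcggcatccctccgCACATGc
In Trem2 the GAGGAA match (read as TTCCTC) begins 40 bases before the start and the TGANTCA match 9 bases before it. In Spp1 the GAGGAA match begins 113 bases before the start. In Cd9 the CATGTG match (read as CACATG) begins 38 bases before the RefSeq start. The Cd9 stretch does not reach that start, as the last 31 bases before it were trimmed. A match describes letters, and binding was not measured in these samples.

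Library totals ranged from 5579590 to 18764516 counts, with a median of 13693204, and the lowest total belonged to chow-fed Lama4 AKO replicate 5. The HFD-fed Lama4 AKO libraries were the shallowest group, with 9156492 to 11640690 counts. The first principal component held 45.8% of the variance. In CPM (a gene's share of the counts of its library, scaled by TMM factors), Lama4 ranged on chow from 41.2 to 196 in Lama4 fl/fl and from 64.2 to 133 in Lama4 AKO, and on HFD from 32.4 to 135 in Lama4 fl/fl and from 36.4 to 92.5 in Lama4 AKO. The groups overlapped. In edgeR's quasi-likelihood test, Lama4 AKO against Lama4 fl/fl gave Lama4 a log2 fold-change of 0.11 on chow (SE 0.34, adjusted p = 0.980). On HFD it gave -0.69 (SE 0.35, adjusted p = 0.347). By quantitative PCR the study reported a Lama4 knockdown in eWAT of chow-fed Lama4 AKO mice, which the counts on chow did not show. The counted 3′ ends lie outside the deleted exon, and whether its loss lowers them was not tested. The genotype is used as labelled. The pan-macrophage genes (13, among them Adgre1 and Cd68) had counts in all groups, their summed level running from 2020 to 15000 CPM, and the adipocyte genes (8, among them Adipoq) from 3220 to 26100 CPM. Of 6 epididymis genes, 3 were in the table, at a summed level of at most 23.7 CPM. The study left out some mice as outliers by a principal component analysis that was not analysed here. A set of 19 libraries, without chow-fed Lama4 fl/fl replicate 3, chow-fed Lama4 AKO replicate 5 and HFD-fed Lama4 fl/fl replicates 3, 4 and 6, was taken as the one it kept. That choice was an inference and rested on expression, so it is not independent of the levels given here. Results are given for all 24 libraries, with the 19 beside them where a call changes.

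Trem2, the receptor, had 16.9 CPM in the lowest chow-fed Lama4 fl/fl library, a median of 281 and 422 in the highest. In chow-fed Lama4 AKO it ran from 31.8 over a median of 156 to 354 CPM, and in HFD-fed Lama4 fl/fl from 53.3 over 292 to 574. In HFD-fed Lama4 AKO it ran from 280 over 432 to 532 CPM. The HFD-fed Lama4 AKO mice thus lay close together near the top, while each of the other 3 groups reached down to 53.3 CPM or less, and all groups overlapped. Gpnmb had the same layout on a wider scale. Its lowest, median and highest CPM were 133, 1420 and 2820 in chow-fed Lama4 fl/fl and 175, 837 and 3680 in chow-fed Lama4 AKO. They were 387, 2860 and 6910 in HFD-fed Lama4 fl/fl and 2080, 4170 and 6920 in HFD-fed Lama4 AKO. The highest mice of both HFD-fed groups had nearly the same level, and it was the low mice that were absent from HFD-fed Lama4 AKO.

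Spp1, which encodes osteopontin, had the widest range of the 8, 84.6-fold from 1.65 to 140 CPM over the 24 libraries. Its lowest, median and highest values were 1.65, 54.2 and 102 CPM in chow-fed Lama4 fl/fl, and 3.79, 12.6 and 62.7 in chow-fed Lama4 AKO. They were 7.43, 39.0 and 59.3 CPM in HFD-fed Lama4 fl/fl, and 37.3, 81.4 and 140 in HFD-fed Lama4 AKO. The lowest value rests on 16 counts. For Spp1 the median of HFD-fed Lama4 fl/fl was below that of chow-fed Lama4 fl/fl, while that of HFD-fed Lama4 AKO was above both, well inside the spread between mice. The lectin gene Lgals3 had this order of medians too. On chow it ran from 384 over a median of 3480 to 5250 CPM in Lama4 fl/fl and from 650 over 2060 to 4630 in Lama4 AKO. On HFD it ran from 841 over 2340 to 6280 CPM in Lama4 fl/fl and from 3350 over 4210 to 5910 in Lama4 AKO, and all groups overlapped.

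The tetraspanins had narrower ranges, 11.2-fold for Cd9 and 4.88-fold for Cd63. On chow, Cd9 ran from 40.6 over a median of 232 to 340 CPM in Lama4 fl/fl and from 59.9 over 115 to 316 in Lama4 AKO, and on HFD from 76.9 over 237 to 415 in Lama4 fl/fl and from 206 over 335 to 453 in Lama4 AKO. Cd63 ran on chow from 805 over 1910 to 3040 CPM in Lama4 fl/fl and from 755 over 1380 to 2390 in Lama4 AKO. On HFD it ran from 846 over 1690 to 3680 CPM in Lama4 fl/fl and from 1850 over 2570 to 3500 in Lama4 AKO. For both, chow-fed Lama4 AKO had the lowest median and HFD-fed Lama4 AKO the highest, with overlap. Cd63 has an annotated pseudogene copy in the table, Cd63-ps, with at most 72 counts in a library. Cd9 and Fabp5 have pseudogene copies in the annotation that were not analysed here, 2 annotated genes on the opposite strand overlap Cd9, and 1 on the same strand overlaps Spp1. The counts of these members are uncertain as far as reads could be split.

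Of the genes for lipid handling, Lipa followed the other members. On chow it ran from 117 over a median of 667 to 902 CPM in Lama4 fl/fl and from 160 over 487 to 1020 in Lama4 AKO. On HFD it ran from 203 over 771 to 1480 CPM in Lama4 fl/fl and from 685 over 1100 to 1590 in Lama4 AKO, again with the low mice missing from the last group. Fabp5 did not show this order. Its median was highest in chow-fed Lama4 fl/fl, at 329 CPM (109 to 386), and lay at 223 (161 to 314) in the Lama4 AKO mice on chow. On HFD it was 225 (137 to 259) in Lama4 fl/fl and 220 (160 to 285) in Lama4 AKO. The medians of these 3 groups differ by far less than the spread between mice.

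**Figure D1:**
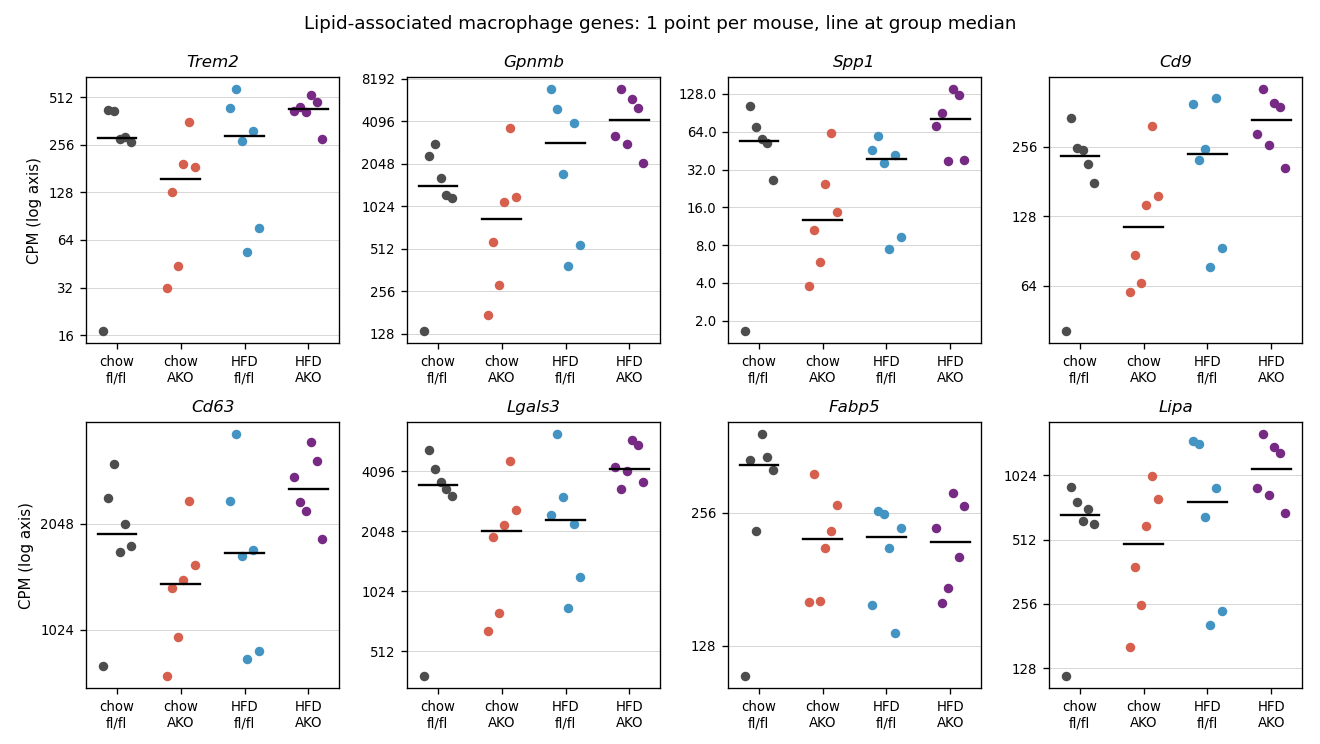
TMM-scaled CPM of each member on a log2 axis, 1 point per mouse and 6 mice per group, with a line at the group median. For Trem2, the HFD-fed Lama4 AKO mice lie between 280 and 532 CPM, while each other group reaches down to between 16.9 and 53.3 CPM, and Fabp5 has its highest median, 329 CPM, in chow-fed Lama4 fl/fl.

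The spread between mice of a group was itself a feature of these genes. The standard deviation of log2 CPM within groups was 1.49 for Spp1, 1.46 for Gpnmb and 1.32 for Trem2, above 99.0%, 98.9% and 98.2% of the 15020 genes tested, whose median was 0.42. It was 1.03 for Lgals3, 1.0 for Lipa and 0.90 for Cd9, and 0.62 for Cd63 and 0.47 for Fabp5, the last above 56.2% of all genes. The low values came from the same mice: chow-fed Lama4 fl/fl replicate 1 was the lowest of its group for all 8 members, chow-fed Lama4 AKO replicate 1 for all 8 and HFD-fed Lama4 fl/fl replicate 4 for 7. In HFD-fed Lama4 AKO, replicate 6 was the lowest for 5 members. Among the HFD-fed Lama4 AKO mice the standard deviation of log2 CPM was 0.32 for Trem2, against 1.76 in Lama4 fl/fl and 1.35 in Lama4 AKO on chow and 1.39 in Lama4 fl/fl on HFD.

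Whether the diet changed the members was asked within each genotype, with edgeR's quasi-likelihood test on all 24 libraries and Benjamini-Hochberg adjustment over the 15020 genes. A gene counted as called when its fold-change reached 1.5, its nominal p-value did not exceed 0.001 and the group with more of it averaged 2 CPM or more. In Lama4 fl/fl mice the members did not separate HFD from chow. Their median log2 fold-change was -0.02 (-0.01 over all genes), with 4 members above and 4 below 0, and 0 of 8 were called, where 0.173% of all genes were. At an unadjusted p under 0.05, where 9.01% of all genes passed, 0 of 8 passed, and limma-voom and DESeq2 also called 0. Gpnmb had the largest difference, a log2 fold-change of 1.0 (SE 0.71, adjusted p = 0.689), and Fabp5 the lowest p, with -0.46 (SE 0.25, adjusted p = 0.598). The intervals were wide: the 95% interval for Trem2 ran from -1.18 to 1.26 on the log2 scale. In the 19 libraries the median was 0.66, 0 members were called, where 11.8% of all genes were, and Gpnmb was the 1 of 8 past an adjusted p of 0.05, where 29% of all genes were, with 2.04 (SE 0.64, adjusted p = 0.0226). Over the 13 pan-macrophage genes the median in the 24 libraries was 0.02, and over the 8 adipocyte genes -0.10. Of the 5 mast cell genes 1 was called higher (median 1.86). Their part was not tested.

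In Lama4 AKO mice, 7 of the 8 members were higher on HFD than on chow by nominal p-value and none was called. Their median log2 fold-change was 1.17, against 0.00 over all genes. Spp1 was 4.20-fold higher on HFD (log2 fold-change 2.07, SE 0.70, adjusted p = 0.0388), and was the 1 of 8 members past an adjusted p of 0.05, where 22.1% of all genes passed, 9.13% as higher and 12.9% as lower. Gpnmb was 3.72-fold higher (1.89, SE 0.72, adjusted p = 0.0598), Trem2 2.74-fold (1.45, SE 0.60, adjusted p = 0.0789) and Cd9 2.40-fold (1.26, SE 0.46, adjusted p = 0.0501). Lgals3, Lipa and Cd63 had differences of 1.07 (SE 0.50, adjusted p = 0.116), 1.06 (SE 0.49, adjusted p = 0.113) and 0.90 (SE 0.34, adjusted p = 0.0559). Fabp5 had -0.03 (SE 0.25, adjusted p = 0.941), with a 95% interval from -0.54 to 0.48. At an unadjusted p under 0.05, 7 of 8 members were higher, where 18.2% of all genes were higher and 39.8% passed in either direction. For the call itself the count was 0 of 8 against 4.12% of all genes, and DESeq2 and limma-voom called 0 too. The number of members past an adjusted p of 0.05 was less stable and ran from 0 to 7 over the alternatives. It was 5 with DESeq2 (28.8% of all genes), 3 with limma-voom (22.4%) and 7 with only these 2 groups in the fit (35%), and it fell to 0 without any 1 of chow-fed replicates 1, 2, 3, 4 or 6 or of HFD-fed replicates 1, 2, 4 or 5. For 0 of 8 members did the HFD-fed and chow-fed mice not overlap, where 2.72% of all genes lay wholly higher on HFD.

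Chow-fed replicate 5 had 354 CPM of Trem2 and 62.7 CPM of Spp1 and was the highest chow-fed Lama4 AKO mouse for 7 of the 8 members. In the fit without it, Spp1 was the 1 member called, where 7.8% of all genes were, with a log2 fold-change of 2.81 (adjusted p = 0.00992), and 6 members passed an adjusted p of 0.05, where 30.4% of all genes did. With any 1 other mouse left out, no member was called. In the 19 libraries, 4 members were called as higher, where 6.12% of all genes were: Gpnmb (2.70, SE 0.59), Spp1 (2.82, SE 0.66), Cd9 (1.69, SE 0.39) and Cd63 (1.12, SE 0.27). With limma-voom and sample quality weights, 7 members were called, where 23.9% of all genes were. Over the alternatives, the adjusted p of Spp1 ranged from 0.000404 to 0.0911 and that of Trem2 from 0.000581 to 0.161. Markers of other cells moved with this comparison. The adipocyte genes had a median log2 fold-change of -1.34, with 8 of 8 below 0, 5 of them at an adjusted p of at most 0.05 and 1 called, the adipokine gene Lep (-2.10, SE 0.51, adjusted p = 0.017). Of 5 mast cell genes, 4 were called higher, among them the chymase Cma1 (3.47, SE 0.82, adjusted p = 0.0158), with a summed level of 36.6 to 419 CPM on chow and 591 to 1940 on HFD. Of 6 mesothelial genes 1 was called lower (median -1.44) and of 6 fibroblast and progenitor genes 1 higher (median 0.57). Of the endothelial (6), T cell (6), B cell (5), dendritic cell (5), neutrophil (3 measured) and erythroid (4) genes none was called, with medians of -0.59, 0.14, 1.04, -0.43, -0.95 and -0.30. The part of these cells in the members' differences was not tested.

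With the genotypes averaged, HFD against chow gave a median log2 fold-change of 0.72 over the members, 7 of 8 above 0. By the call, 0 of 8 passed, where 2.25% of all genes did. At an unadjusted p under 0.05, Gpnmb (1.45, SE 0.50, adjusted p = 0.0577), Cd9 (0.72, SE 0.32, adjusted p = 0.112) and Lipa (0.73, SE 0.35, adjusted p = 0.137) passed, 3 of 8 against 35.5% of all genes. In the 19 libraries Gpnmb, Cd9 and Cd63 were called as higher, 3 of 8 against 8.92% of all genes. Without chow-fed Lama4 AKO replicate 5 alone, Gpnmb was called (1.86, adjusted p = 0.0175), 1 of 8 against 3.72% of all genes.

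Loss of Lama4 from adipocytes was compared within each diet. On HFD all 8 members were above 0 in Lama4 AKO against Lama4 fl/fl, with a median log2 fold-change of 0.49 (-0.03 over all genes), but none passed: 0 of 8 were called (0.173% of all genes) and 0 of 8 had an unadjusted p under 0.05 (14.8%). Spp1 had the largest difference, 1.33 (SE 0.68, adjusted p = 0.349), followed by Lgals3 with 0.74 (SE 0.50, adjusted p = 0.462) and Trem2 with 0.57 (SE 0.59, adjusted p = 0.631). In the 19 libraries, which hold 3 HFD-fed Lama4 fl/fl mice, the median was -0.02 and 4 members were above 0. In the 24 libraries, 11 of the 13 pan-macrophage genes were above 0 too (median 0.28). Markers of other cells lay to 1 side here as well. All 8 adipocyte genes were below 0 (median -1.01), none of them called or past an adjusted p of 0.05, Retn having the lowest p (-2.50, SE 0.71, adjusted p = 0.291). The 6 mesothelial genes were all below 0 (median -0.89) and the 5 mast cell genes all above (median 0.50), and the part of these cells was not tested. On chow all 8 members were below 0 in Lama4 AKO, with a median of -0.56 (0.00 over all genes). Here too 0 of 8 were called (0.113% of all genes) and 0 of 8 passed an unadjusted p under 0.05 (5.85%), Spp1 coming nearest with -1.36 (SE 0.69, adjusted p = 0.869). On chow the median in the 19 libraries was -0.95, and Spp1 (-2.0, SE 0.65, adjusted p = 0.445) and Cd9 (-1.0, SE 0.40, adjusted p = 0.526) had an unadjusted p under 0.05, 2 of 8 against 8.5% of all genes. Without chow-fed Lama4 AKO replicate 5 alone the median was -1.03. The pan-macrophage genes had a median of -0.43 on chow, with 1 of 13 above 0, and the adipocyte genes 0.19, with 5 of 8 above 0. DESeq2 and limma-voom called 0 members in both comparisons. With limma-voom and sample quality weights 0 were called too, where 3.5% of all genes were on HFD and 1.92% on chow. The medians were then larger, 1.19 on HFD and -1.14 on chow. In each comparison 2 of 8 members passed an adjusted p of 0.05 with these weights, and the share of all genes past it is not reported here. The signs shared by the 8 members are not 8 separate observations, since the members vary together between mice.

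**Figure D2:**
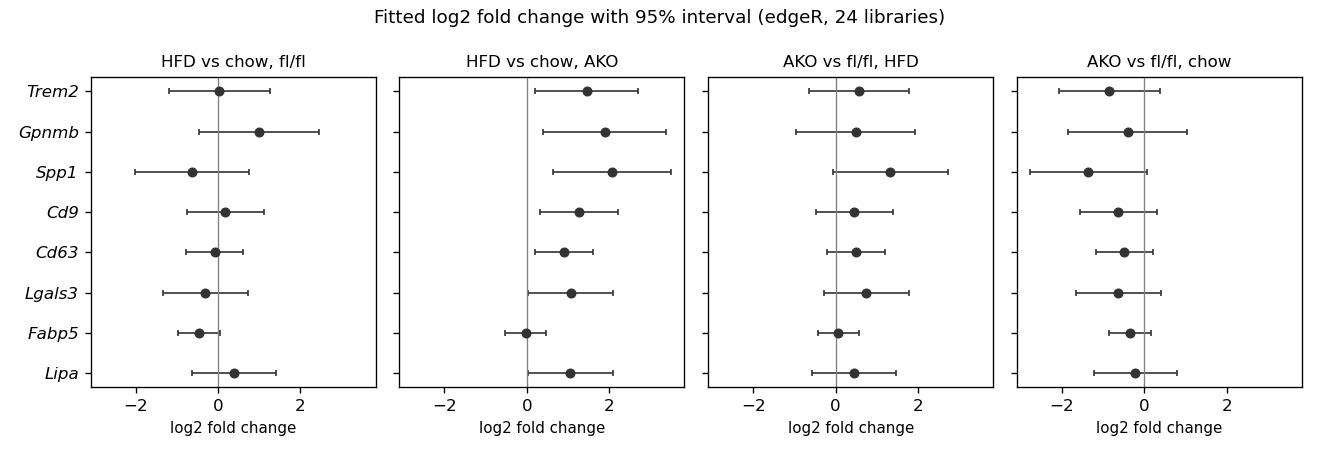
Fitted log2 fold-change of each member (point) with its 95% interval (bar) in the 4 comparisons of diet and of genotype, from 24 libraries. In Lama4 AKO mice 7 of 8 intervals lie above 0 for HFD against chow, Fabp5 (-0.54 to 0.48) being the exception, and in the other 3 comparisons every interval includes 0.

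The difference between the 2 diet responses was tested as an interaction. All 8 members had a more positive diet log2 fold-change in Lama4 AKO than in Lama4 fl/fl mice. The median difference was 1.03 on the log2 scale (-0.03 over all genes). For Fabp5 the values were -0.03 in Lama4 AKO and -0.46 in Lama4 fl/fl mice, so its change was smaller in Lama4 AKO. Spp1 had an unadjusted p under 0.05, with 2.70 (SE 0.96, adjusted p = 0.253), which makes 1 of 8 members where 15.6% of all genes passed. By the call, 0 of 8 passed, against 0.386% of all genes. In this fit the response to diet was not shown to differ between the genotypes for any member. With limma-voom and sample quality weights, which down-weight the more variable libraries, 5 members were called (Trem2, Spp1, Cd9, Cd63 and Lgals3), where 9.04% of all genes were. HFD-fed Lama4 AKO mice against chow-fed Lama4 fl/fl mice gave a median of 0.62, with Gpnmb (1.48, SE 0.71, adjusted p = 0.163) as the 1 of 8 members with an unadjusted p under 0.05, where 30.3% of all genes passed. By the call, 0 of 8 passed, against 2.1% of all genes. In the 19 libraries Gpnmb passed an adjusted p of 0.05 (1.74, SE 0.56, adjusted p = 0.0265), 1 of 8 against 29.1% of all genes, and with sample quality weights Gpnmb, Cd63 and Fabp5 did, the last as lower, 3 of 8 against 48.2%. These comparisons share groups of mice, so they are not independent of each other.

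To set the members against the macrophage genes of the same mouse, the mean log2 CPM of 13 pan-macrophage genes was subtracted from each member. That mean was 7.91 ± 0.90 in chow-fed Lama4 fl/fl, 7.51 ± 0.82 in chow-fed Lama4 AKO, 7.85 ± 0.91 in HFD-fed Lama4 fl/fl and 8.40 ± 0.16 in HFD-fed Lama4 AKO (SD, n = 6 each). The difference carries meaning only between groups of the same gene, as 3′ counts do not compare levels between genes. Subtraction assumes that a member changes in log2 CPM by as much as the macrophage mean. In chow-fed Lama4 fl/fl replicate 1 that mean deviated from its group by -1.78, Trem2 by -3.549 and Cd63 by -1.179. The difference can therefore still hold part of the macrophage level, and how much was not tested. In Lama4 AKO mice, Trem2 relative to the macrophage genes was -0.66 ± 0.66 on chow and 0.31 ± 0.23 on HFD, a difference of 0.97 log2 (SE 0.29, exact permutation test, two-sided, p = 0.00649, adjusted p = 0.139 over 32 tests). Gpnmb was 1.57 higher (SE 0.45, exact permutation p = 0.0108, adjusted p = 0.139) and Spp1 1.57 higher (SE 0.48, exact permutation p = 0.013, adjusted p = 0.139). Fabp5 went the other way, with -0.92 (SE 0.31, exact permutation p = 0.0195, adjusted p = 0.156), and Cd63 had 0.07 (SE 0.19, exact permutation p = 0.751, adjusted p = 0.798). Fabp5 itself hardly moved, with a mean log2 CPM of 7.77 on chow and 7.75 on HFD. Its difference therefore reflects the higher macrophage mean on HFD (8.40 against 7.51) and not a fall in Fabp5. None of the 32 differences passed an adjusted p of 0.05, and the smallest p that 6 against 6 mice allow is 0.00216.

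Without chow-fed Lama4 AKO replicate 5, or in the 19 libraries, Trem2 (1.13) and Gpnmb (1.88) passed, each with an adjusted exact permutation p of 0.0346. Among Lama4 AKO mice the 19 libraries leave out this mouse only, so both settings compare the same mice and are not separate results. The mouse left out had the highest chow-fed Lama4 AKO values relative to the macrophage genes, 0.149 for Trem2 and 3.525 for Gpnmb. The next highest were -0.076 and 2.426, below the lowest HFD-fed Lama4 AKO values of 0.009 and 2.902. Leaving it out thus removed all overlap between the diets for both genes, so these p-values rest on that choice. With Adgre1 and Cd68 alone as the macrophage reference, 4 members changed sign for HFD against chow in Lama4 AKO mice. These were Cd63 (-0.55), Lipa (-0.25), Lgals3 (-0.17) and Cd9 (-0.05). All members share the reference, so the differences of Trem2, Gpnmb and Spp1 fell by the same amount, while keeping their sign. None of the differences passed an adjusted p of 0.05 with this reference. Cd68 itself was higher on HFD in these mice (log2 fold-change 1.46, SE 0.53), much as Trem2 was (1.45, SE 0.60). On HFD, Spp1 relative to the macrophage genes was -3.16 ± 0.41 in Lama4 fl/fl and -2.19 ± 0.79 in Lama4 AKO (difference 0.97, SE 0.36, exact permutation p = 0.0325, adjusted p = 0.208).

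**Figure D3:**
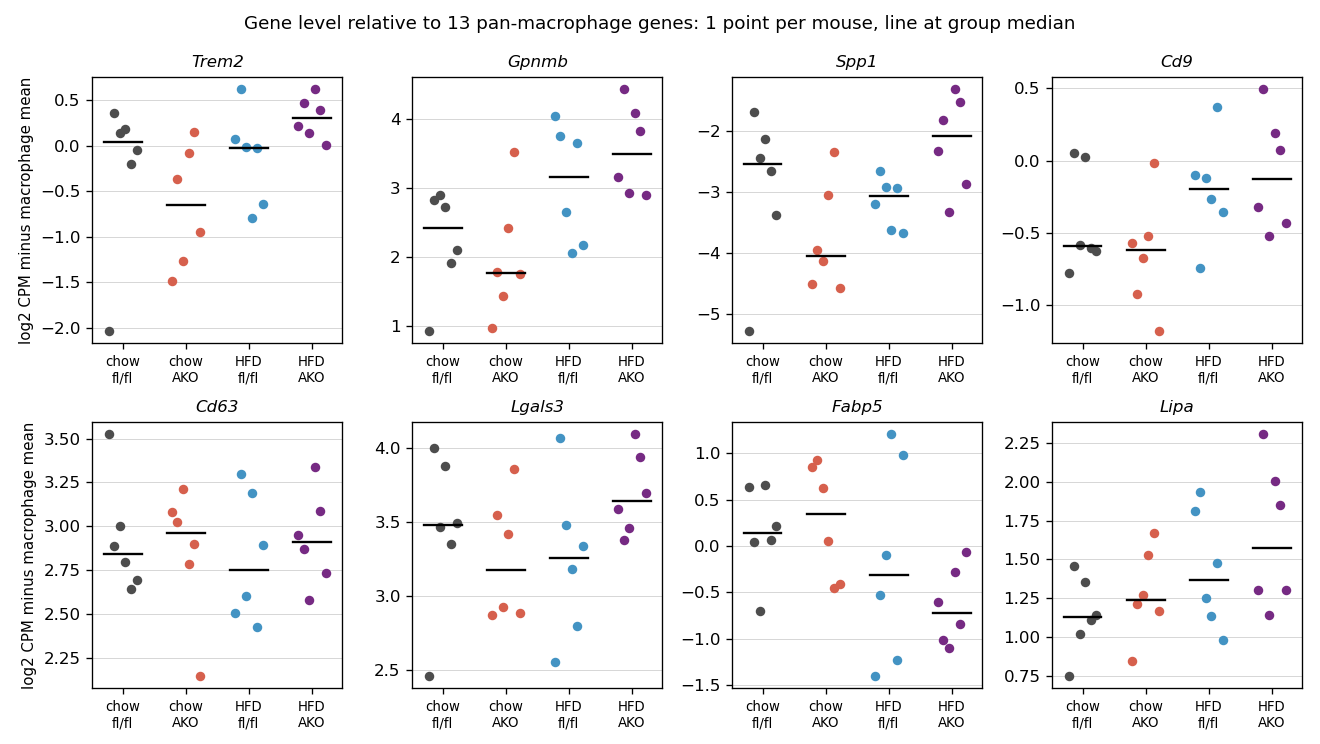
Log2 CPM of each member minus the mean log2 CPM of 13 pan-macrophage genes in the same mouse, 1 point per mouse, with a line at the group median (y axes differ between panels). In Lama4 AKO mice the mean of Trem2 was -0.66 on chow and 0.31 on HFD and that of Fabp5 0.27 and -0.65, with overlap between the diets. Before the subtraction the mean log2 CPM of Fabp5 in these mice was 7.77 on chow and 7.75 on HFD.

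Within groups, 7 of the members rose and fell with the macrophage genes from mouse to mouse. After the group means were removed, Pearson's r with the pan-macrophage level over 24 mice was 0.962 for Trem2 (Spearman's rho 0.910), 0.954 for Lipa (0.881), 0.934 for Gpnmb (0.857), 0.911 for Lgals3 (0.805), 0.909 for Cd9 (0.782), 0.902 for Cd63 (0.838) and 0.880 for Spp1 (0.739). Permutation p-values for r were 1e-05 to 5e-05 (1.6e-05 to 5.71e-05 adjusted over 8 relations), 1e-05 being the smallest that 100000 permutations can give, and those for rho were 1e-05 to 0.00032 (2.67e-05 to 0.000366 adjusted). Without the 2 mice farthest from the median, chow-fed Lama4 fl/fl replicate 1 and HFD-fed Lama4 fl/fl replicate 4, r was 0.794 to 0.937 for these 7 members. Fabp5 had r = 0.418 (permutation p = 0.0872, adjusted p = 0.0872) and rho = 0.170 (permutation p = 0.448, adjusted p = 0.448), and r = 0.145 without those mice. Within the HFD-fed Lama4 AKO mice alone, whose macrophage level varied little, r was 0.28 for Lipa, 0.31 for Gpnmb, 0.33 for Spp1 and 0.74 for Trem2 (6 mice, no test). The tissue, depth and scaling of a library are shared by all its genes.

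With the adipocyte genes the same 7 members were inversely related, r running from -0.848 for Lgals3 to -0.957 for Gpnmb and rho from -0.795 to -0.933 (permutation p at most 6e-05 and adjusted p at most 6.86e-05 for each), and from -0.794 to -0.939 without the same 2 mice. Fabp5 had r = -0.285 (permutation p = 0.204, adjusted p = 0.204) and rho = -0.176 (permutation p = 0.434, adjusted p = 0.434), and r = -0.05 without them. CPM are shares of a library, and the part of this in the inverse relation was not tested. Among the 8 members, the 21 pairs without Fabp5 had r between 0.83 and 0.98 (median 0.93) and the 7 pairs with Fabp5 between 0.32 and 0.66, over 24 mice with group means removed.

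**Figure D4:**
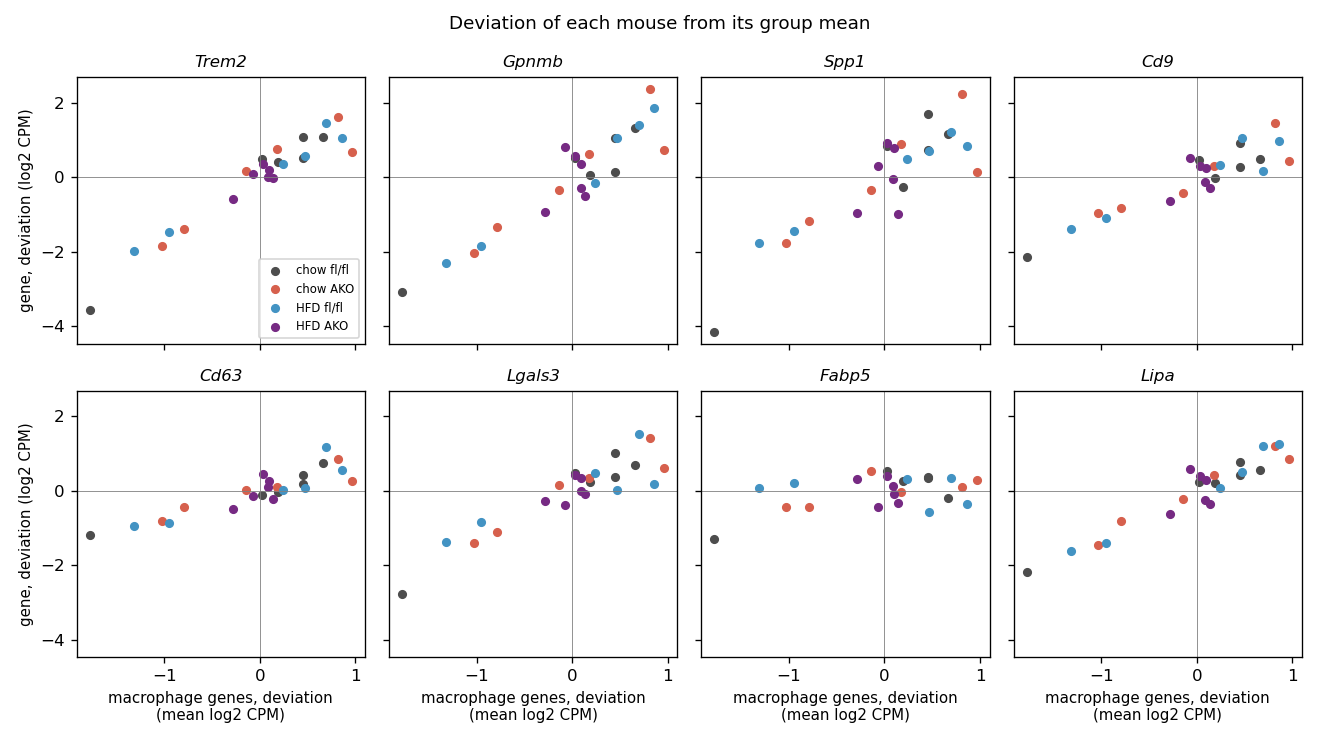
Deviation of each mouse from its group mean, for 13 pan-macrophage genes (x axis, mean log2 CPM) and for each member (y axis, log2 CPM), coloured by group. Over 24 mice r is 0.962 for Trem2 and 0.418 for Fabp5, and the points farthest to the left belong to chow-fed Lama4 fl/fl replicate 1.

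The genes outside the lists whose deviations were most like the mean of the 8 members' standardised deviations were, over 24 mice, Atf3 (r = 0.990), Aph1c (0.987), Capg (0.985), Rnf128 (0.984), Adam8 (0.983), Tlr13 (0.981), Sh3bgrl3 (0.980), Havcr2 (0.979), Nckap1l (0.978) and Myo1f (0.976). Atf3 is a stress-induced transcription factor, Capg caps actin filaments, and Tlr13 is an endosomal receptor for bacterial RNA. Such likeness was common: 435 of 15020 genes had r of at least 0.9 and 100 had r of -0.9 or below. The members themselves had r from 0.930 to 0.989 with their own mean, apart from Fabp5 with 0.567.

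Genes that work with the members were read from lists, here for HFD against chow in Lama4 AKO mice, where 4.12% of all genes were called and, at an adjusted p of at most 0.05, 9.13% were higher and 12.9% lower. Of 10 genes of Trem2 signalling, 0 were called, 0 passed an adjusted p of 0.05 and 9 were above 0 (median log2 fold-change 0.86). Syk, the kinase recruited by Tyrobp, had 0.96 (SE 0.35, adjusted p = 0.0522) and Tyrobp itself 1.38 (SE 0.52, adjusted p = 0.058). The adaptor Lat2 had 1.5 (SE 0.55, adjusted p = 0.0533) and Inpp5d, the phosphatase SHIP1, 0.95 (SE 0.36, adjusted p = 0.0549). Of 12 genes of lysosome and matrix breakdown, 12 were above 0 (median 1.08), 0 were called and 3 were higher at an adjusted p of at most 0.05 (9.13% of all genes): the cathepsins Ctsb (1.12, SE 0.34, adjusted p = 0.0278) and Ctsd (0.98, SE 0.34, adjusted p = 0.0428) and the integrin Itgax (1.59, SE 0.54, adjusted p = 0.0389), which encodes CD11c. Of 12 lipid handling genes 8 were above 0 (median 0.55), 0 were called, and Apoe, the apolipoprotein that carries cholesterol out of macrophages, passed an adjusted p of 0.05 with 0.80 (SE 0.26, adjusted p = 0.0344). Fabp4, the fatty acid binding protein most abundant in adipocytes, had -0.99 (SE 0.37, adjusted p = 0.0567).

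The 4 MiT/TFE factor genes, whose proteins drive lysosomal transcription, were all above 0 (median 0.66) and none was called or passed an adjusted p of 0.05, Tfec having 0.91 (SE 0.42, adjusted p = 0.109) and Mitf 0.74 (SE 0.35, adjusted p = 0.111). The pan-macrophage genes were above 0 in 13 of 13 (median 0.65), 0 called and 2 higher at an adjusted p of at most 0.05 (9.13% of all genes), Mertk (0.65, SE 0.20, adjusted p = 0.0284) and Cd68 (1.46, SE 0.53, adjusted p = 0.049). The resident macrophage genes had a median of -0.70, with 3 of 8 above 0, 0 called and 2 lower at an adjusted p of at most 0.05 (12.9% of all genes), Lyve1 (-1.56, SE 0.53, adjusted p = 0.0395) and Cd163 (-1.02, SE 0.35, adjusted p = 0.0436). In HFD-fed Lama4 AKO against HFD-fed Lama4 fl/fl mice, 0 genes of these 6 lists were called and 0 passed an adjusted p of 0.05, with medians of 0.50, 0.63, 0.14, 0.25, 0.28 and -0.41 in the order given. In the same order, 9 of 10, 12 of 12, 9 of 12, 3 of 4, 11 of 13 and 3 of 8 genes were above 0.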

How the data were processed

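The authors mapped and counted the QuantSeq reads with the Lexogen QuantSeq pipeline on the Bluebee platform and deposited raw counts per gene and library, and a second deposited table, a normalized signal in which each library's counts are divided by a size factor, served for gene symbols only. The submitters' processing notes name R 4.0.3 and DESeq2 1.30. Every column belonged to a labelled sample (0 others).

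The quasi-likelihood test of edgeR 4.0.16 (R 4.3.3) was run on the 15020 of 16730 genes that reached 1 CPM in 3 or more libraries. Counts were scaled by TMM, and 1 coefficient per group was fitted to the 24 libraries. The fit was tested on simulated data. The alternatives used limma 3.58.1, DESeq2 1.42.0, other filters, scalings and sets of libraries. Log2 CPM used a prior count of 2. Exact permutation tests and 100000-permutation correlations were run in Python 3.11.15 with scipy 1.17.1. Coordinates are those of GRCm38.

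All 8 members were named in every comparison, with genes of the other lists by lowest p in Lama4 AKO mice and the 10 genes most like the members. Members and lists were chosen with earlier results of these data known. With 1 library per mouse, p-values rest on the spread between mice. The edgeR fit shares this spread over the 4 groups, although it differed between them. Mice were littermates, and litter was not modelled. No 2 libraries of a group agreed within sampling noise. The lowest count of a member in a library ran from 16 (Spp1) to 7814 (Cd63), in libraries of 5579590 counts or more. A count of 0 would allow up to 3 counts, and this covers counting error only.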

Additional observations from a re-analysis of the deposited data

Results flagged for a closer look

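Chow-fed Lama4 fl/fl replicate 1 stood far below the other 5 mice of its group for 6 of the 8 members. On the log2 CPM scale it had 4.09 for Trem2 (the others 8.05 to 8.72), 7.05 for Gpnmb (10.21 to 11.46) and 0.85 for Spp1 (4.72 to 6.67). It had 5.35 for Cd9 (7.47 to 8.41), 8.59 for Lgals3 (11.59 to 12.36) and 6.88 for Lipa (9.24 to 9.82). In each case the gap to the nearest mouse was over 0.625 of the group's range, Dixon's limit for 6 samples. Of 32 groups examined 6 passed it, where chance passes about 1 in 20, and the 6 are the same mouse. That library also had the lowest pan-macrophage level of its group (6.13 log2 CPM) and the highest adipocyte level (11.40). Without it, 0 members were called in any comparison, and the median of the members for HFD against chow in Lama4 fl/fl mice was -0.22.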

How the results depend on the processing

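In all 7 comparisons 0 members were called with TMM or RLE scaling, limma-voom, DESeq2, no filter, filterByExpr or, where run, only the groups compared. For HFD against chow in Lama4 AKO mice the count was 4 in the 19 libraries, 7 with sample quality weights, 1 without chow-fed Lama4 AKO replicate 5 and 1 with an adjusted p of 0.05 as the rule. With the genotypes averaged it was 3 in the 19 libraries, and for the interaction 5 with quality weights. Leaving out each mouse gave 0 to 1 members called in the comparison within Lama4 AKO mice and with the genotypes averaged. Differences from the macrophage level past an adjusted p of 0.05 numbered 2 in the 19 libraries and 0 to 2 when each mouse was left out. The cause was not tested.

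Signs turned in these cases. In the 19 libraries, HFD against chow in Lama4 fl/fl mice gave 0.04 for Spp1, 0.57 for Cd63 and 0.22 for Lgals3, and Lama4 AKO against Lama4 fl/fl on HFD gave -0.05 for Trem2, -0.29 for Gpnmb, -0.05 for Cd9 and -0.18 for Lipa. With quality weights, the former gave -0.65 for Trem2, -0.02 for Gpnmb, -0.27 for Cd9 and -0.38 for Lipa, and Fabp5 had 0.06 in Lama4 AKO mice and -0.02 on HFD. With each mouse left out, the ranges were -0.28 to 0.26 (Trem2), -0.03 to 0.37 (Cd9) and -0.39 to 0.09 (Cd63) in Lama4 fl/fl mice, -0.12 to 0.09 (Fabp5) in Lama4 AKO mice and -0.05 to 0.14 (Fabp5) on HFD. Against Adgre1 and Cd68, Cd9 had -0.05, Cd63 -0.55, Lgals3 -0.17 and Lipa -0.25, and Cd63 ranged from -0.07 to 0.14 against the 13 genes with each mouse left out. Fabp5 passed with the macrophage level in the 19 libraries (r = 0.729).

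Replicate numbers did not pair the mice (correlations of -0.534 to 0.714, with 5 of 24 libraries nearest their own number). With the replicate block, 0 members were called in any comparison, Fabp5 had 0.01 in Lama4 AKO mice, and all-gene calls there fell from 619 to 457. For that comparison over all genes, DESeq2 called 1315, the groups compared alone 1388, the 19 libraries 2332 and quality weights 3594. In the other comparisons the all-gene counts were 26 (11 to 1750 over the alternatives) for diet in Lama4 fl/fl, 338 (254 to 3186) with the genotypes averaged, 26 (19 to 525) and 17 (9 to 289) for genotype on HFD and on chow, 58 (32 to 1358) for the interaction and 315 (199 to 2436) for Lama4 AKO on HFD against Lama4 fl/fl on chow. With each mouse left out, the count in Lama4 AKO mice ran from 299 to 1169. Members past an adjusted p of 0.05 there numbered 0 to 7 over all alternatives. The lowest count of a member in a library was 16, for Spp1.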
